A study of Homo sapiens with 3 samples.

Results

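Isolated summit pairs are positions at which the fusion protein HA-PSF-TFE3 gave a ChIP-seq peak summit in both libraries while no other summit of either library lay nearby. They were chosen by position alone. Each summit of 1 list was paired with a summit of the other list on the same chromosome where each was the nearest to the other and they lay at most 200 bp apart. A pair was kept as isolated where no further summit of either list lay within 100 kb of either of its summits. This gave 1021 isolated pairs of 21518 pairs in all (4.74%, 95% Wilson interval 4.47 to 5.04%), and 20497 pairs with a nearer neighbour served for comparison. The isolated pairs took 2.27% of the 44983 summits of replicate 8 and 3.64% of the 28084 summits of replicate 9.

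Chromatin immunoprecipitation followed by sequencing (ChIP-seq) recovers the DNA bound by a protein with an antibody and reads where in the genome it came from. The cells were HK-2, an established cell line from human proximal tubule, carrying an HA-tagged PSF-TFE3 construct that doxycycline switches on, and they had received 0.2 µg/ml doxycycline for 24 h. There were 2 ChIP libraries, replicates 8 and 9, which the study's methods describe as separate inducible clones, so that clone and replicate cannot be told apart. A library of input DNA, which is chromatin taken before immunoprecipitation, came from the same kind of cells and was what the authors called peaks against. Cells without the fusion or without doxycycline are not analysed here, so that binding of the fusion cannot be told apart from signal that the antibody matrix would give without it. A summit is the base of highest enrichment within a peak, and its score is −log10 of the q-value that the authors' peak caller gave, so that a higher score stands for a smaller q-value. Scores are not normalised between libraries and the lists hold no depth. With 2 libraries of 1 group, an exact sign test cannot go below p = 0.50, so values are given per library with no test. Intervals cover counting error only, and neighbouring sites share their chromatin and are not independent.

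TFE3 belongs to the MiT/TFE family of basic helix-loop-helix leucine zipper transcription factors, which bind E-box sequences and the related CLEAR element at genes of lysosomes and autophagy. Translocations in a form of renal cell carcinoma join the DNA-binding part of TFE3 to the front of another protein, here PSF, also named SFPQ, an RNA-binding protein of the nucleus. Peaks of such factors tend to gather near genes and their enhancers. The pairs described here lie far from other summits, which does not say how far they lie from genes or enhancers. Positions are on hg19, the build that the submitters' processing notes name, counted from 1. The genes and DNA sequence at these sites were not analysed here, because no genome of that build was at hand.

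Some isolated pairs were among the stronger summits of both lists, but none was among the 182 pairs whose summits both ranked 500 or better. That count of 0 allows a share of up to 1.65%. The pair with the best worst rank, meaning the larger of its score ranks in the whole lists, lay at chr4:92028498 in replicate 8 and 28 bp away at chr4:92028526 in replicate 9. Its scores were 67.4 and 68.3, rank 41 of replicate 8 and rank 516 of replicate 9, and the nearest other summits lay 149 kb to its left and 730 kb to its right. A pair at chr4:113739181 scored 47.8 and 66.4, with the nearest other summit 235 kb away. Another pair on the same chromosome, at chr4:29562368, scored 46.0 and 78.4, and the latter was the highest replicate 9 score of any isolated pair. The next lay at chr7:33762189, with scores of 60.4 and 61.6, and at chr6:147336264, with scores of 47.9 and 59.4. Of these 5 best-ranked isolated pairs, 3 were on chromosome 4, which held 9.11% of all isolated pairs. With 5 sites, no preference for a chromosome can be read from this. Among all pairs whose worst rank was 1000 or better, 7 of 436 were isolated (1.61%, interval 0.78 to 3.28%), and among those at 5000 or better the share was 2.17%, both under the share over all pairs.

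The most remote pair lay at chr7:69850096 in replicate 8 and 8 bp away in replicate 9, with scores of 15.9 and 9.47. Its nearest other summits were 1.91 Mb to the left and 2.05 Mb to the right, and no other summit of either list lay within 1 Mb. The pair at chr11:38195744 was 1718 kb from the next summit and scored 7.68 and 7.29, weaker than the median of the isolated pairs in both libraries. A pair at chrX:73339411, 1406 kb from the next summit, scored 16.3 and 4.39. At chr6:62823961 the scores were 19.2 and 18.1, with 1387 kb to the nearer side and 4.04 Mb to the left. At chr2:81873035 they were 18.1 and 36.8, with 1145 kb to the next summit. These distances to other summits are plain differences of position, with no allowance for stretches where no peak could be called. The summits within these 5 pairs lay 4 to 39 bp apart, closer than the median distance of all isolated pairs. Over all isolated pairs this distance did not fall steadily with remoteness. Its median was 51 bp where the nearest other summit was 100 to 200 kb away, 54 bp at 200 to 500 kb and 43 bp over 500 kb.

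Across the isolated pairs the nearest other summit was 123, 160 and 241 kb away at the lower quartile, median and upper quartile, up to 1914 kb. On the farther side the next summit was a median of 351 kb away. Of the 1021 pairs, 352 (34.5%) were over 200 kb, 55 (5.39%) over 500 kb and 10 (0.979%) over 1 Mb from any other summit. For the other pairs the median was 4.46 kb. At the threshold, the pairs just inside lay at chrX:54619081, chr16:23835144 and chr12:94854252, with 100.025, 100.159 and 100.416 kb to the next summit and scores of 13.9 and 18.1, 24.1 and 12.8, and 30.1 and 6.95. Those just outside lay at chr7:100628568, chr2:217822034 and chr9:123941307, with 99.966, 99.925 and 99.818 kb and scores of 8.36 and 15.6, 25.4 and 27.1, and 6.19 and 6.61. The scores on both sides of the threshold overlapped.

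Isolated pairs had lower scores than other pairs in both libraries. In replicate 8 the isolated pairs ran from 1.37 to 67.4 with a median of 11.5 and quartiles of 6.85 and 18.1, against a median of 14.9 and quartiles of 8.93 and 23.7 for the other pairs. In replicate 9 they ran from 1.42 to 78.4 with a median of 9.41 and quartiles of 5.91 and 16.5, against 12.5, 6.78 and 24.8. The ranges overlapped almost entirely, and the medians differed by −3.42 in replicate 8 and −3.10 in replicate 9, a mean of −3.26 ± 0.22 (SD, n = 2). Because the lists have different score scales, the same was read as the percentile of a score within its own list, where the medians were 63.3 and 45.7 for isolated pairs and 73.0 and 56.7 for other pairs. The mean difference was −10.3 ± 0.95 percentile points (SD, n = 2). With summits of score 10 and above alone, where 1314 pairs were isolated, the difference of the median scores was −0.185 in replicate 8 and −2.67 in replicate 9.

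**Figure D1:**
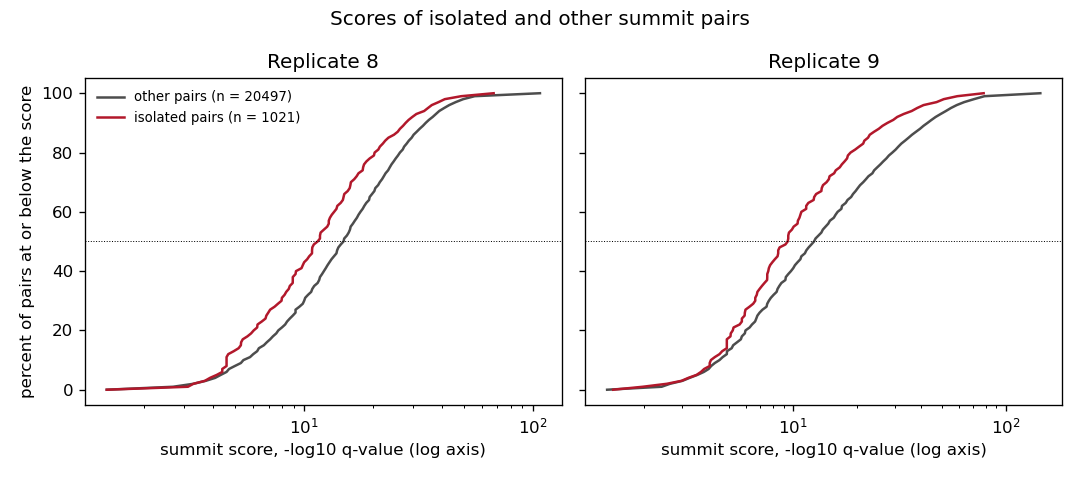
Percent of summit pairs at or below each score (−log10 q-value, log axis) in replicate 8 (left) and replicate 9 (right), for the 1021 isolated pairs (red) and the 20497 other pairs (grey), with a dotted line at the median. In both libraries the red curve lies to the left over most of its course, with medians of 11.5 against 14.9 and 9.41 against 12.5.

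The shortfall was largest in proportion at the strong end. In replicate 8, 76 isolated pairs (7.44%) had scores of 30 or more, and in replicate 9 there were 86 (8.42%), against 14.2% and 19.2% of the other pairs. Scores of 10 or more were found in 584 (57.2%, interval 54.1 to 60.2%) and 463 (45.3%, 42.3 to 48.4%), against 70.1% and 59.0%. Scores under 5 made up 13.4% and 17.9% of the isolated pairs, against 8.05% and 13.3%. All pairs were also divided into 5 equal classes by the mean of their score percentiles. The isolated share fell at each step, from 6.83% in class 1, the lowest, through 5.90, 5.11 and 3.37% to 2.51% in class 5, which is 294, 254, 220, 145 and 108 pairs. Strong summits were thus present among the isolated pairs but made up a smaller share of them.

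Scores changed gradually with distance, without a step at 100 kb. Pairs with another summit 1 to 5 kb away had the highest medians, 16.3 in replicate 8 and 14.6 in replicate 9, over 6926 pairs. The medians then fell to 14.4 and 12.4 at 5 to 20 kb, 13.9 and 10.9 at 20 to 50 kb and 13.0 and 10.2 at 50 to 100 kb. Among the isolated pairs they were 12.2 and 9.47 at 100 to 200 kb (669 pairs), 10.5 and 8.35 at 200 to 500 kb (297 pairs) and 10.7 and 9.47 over 500 kb (55 pairs). Pairs with a neighbour within 1 kb, at 14.8 and 11.7, were below those at 1 to 5 kb in both libraries.

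**Figure D2:**
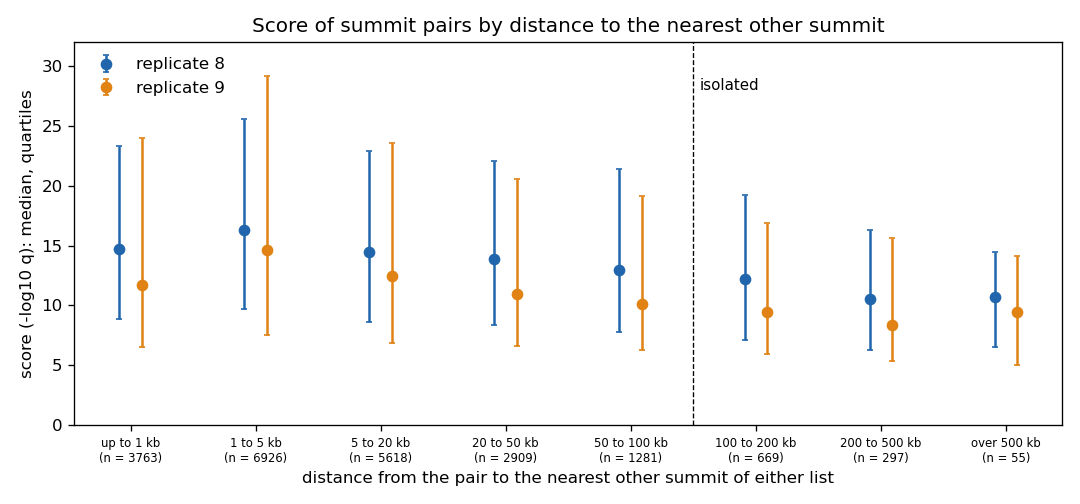
Median score (−log10 q-value, points) with quartiles (bars) of summit pairs by distance to the nearest other summit of either list, in replicate 8 (blue) and replicate 9 (orange), with the number of pairs under each bin and a dashed line at the isolation distance of 100 kb. The medians are highest at 1 to 5 kb, 16.3 and 14.6, and lie between 8.35 and 12.2 in the 3 isolated bins.

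Isolation by the rule also favours regions with few summits, and the isolated pairs had a median of 28 other summits within 1 Mb (quartiles 15 and 49, at most 185) against 78 (50 and 112) for the other pairs. Their scores were therefore compared with those of other pairs in 5 bands of the number of other summits within 1 Mb. With 0 to 9 other summits the isolated pairs differed by −1.02 in replicate 8 and −2.61 in replicate 9, over 150 isolated and 152 other pairs. With 10 to 19 the differences were −2.07 and −1.71, and with 20 to 29 they were −3.41 and −1.26. With 30 to 39 they were −2.98 and −2.60, and with 40 or more −2.60 and −2.61, over 354 isolated and 17223 other pairs. Numbers of summits were not matched within a band, and the band of 40 or more has no upper limit. In every band the rule still keeps other summits out of the 100 kb around an isolated pair. Regional density and isolation are therefore not separated by this comparison. The isolated medians were lower in each of the 5 bands in both libraries.

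A pair's score can also be set against isolation judged in the other list alone. The list that gave the score then had no part in judging isolation, although it took part in the pairing, since summits without a counterpart are not pairs. Pairs whose replicate 8 summit was isolated in the replicate 8 list had a median replicate 9 score of 9.47 (1154 pairs) against 12.5 for the rest, a difference of −3.05. Pairs whose replicate 9 summit was isolated in the replicate 9 list had a median replicate 8 score of 12.9 (2133 pairs) against 14.9, a difference of −1.97. By the rule, all 1021 isolated pairs are among both the 1154 and the 2133 pairs. These differences are therefore not separate from those of the isolated pairs given above. Over all summits of 1 list, paired or not, the difference was smaller in replicate 8, with medians of 7.77 against 8.26, than in replicate 9, with 8.50 against 10.7.

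The chromosomes differed in their isolated share. Among the 23 chromosomes other than Y, which held 8 pairs, chromosome 17 had the lowest share, 12 of 1052 pairs (1.14%, interval 0.654 to 1.98%), followed by chromosome 19 with 12 of 750 (1.60%), 22 with 10 of 543 (1.84%), 16 with 19 of 844 (2.25%) and 20 with 19 of 694 (2.74%). Chromosome X had the highest, 55 of 485 pairs (11.3%, interval 8.82 to 14.5%), followed by 13 with 54 of 557 (9.69%), 4 with 93 of 1097 (8.48%), 18 with 35 of 422 (8.29%) and 5 with 80 of 1006 (7.95%). Of the chromosomes named here, 17, 19 and 22 are known as gene-dense and 4, 13, 18 and X as gene-poor. No such description is given for 5, 16 and 20. Gene density was not measured here, so its relation to the isolated share was not tested. Leaving out Y, the 5 chromosomes with the highest shares held 31.0% of the isolated pairs and 15.9% of the other pairs, and the 5 with the lowest held 7.05% and 18.6%. By number, chromosome 2 held the most isolated pairs, 98, followed by 4 with 93. On chromosome Y, 1 of the 8 pairs was isolated.

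**Figure D3:**
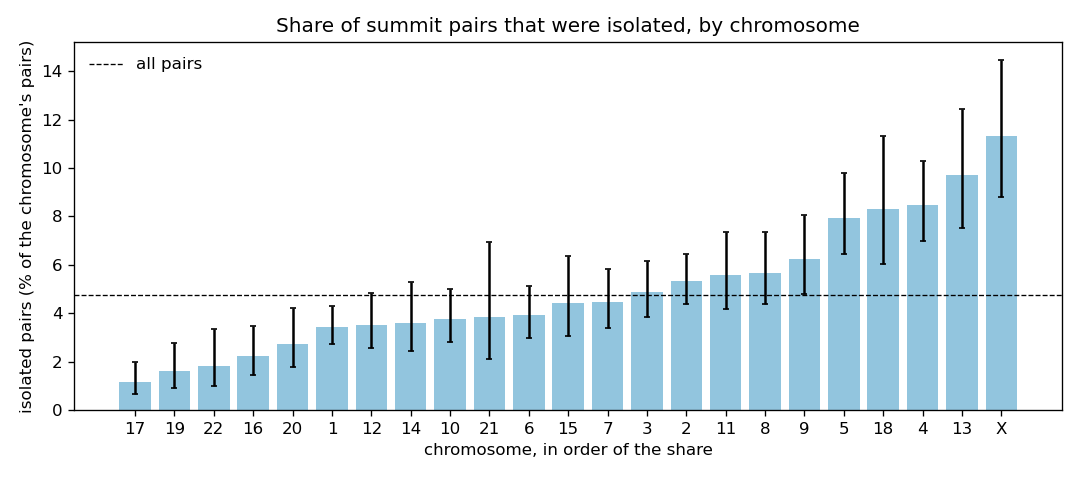
Isolated pairs as a percentage of all summit pairs of each chromosome, in order of that share, with 95% Wilson intervals (bars) and the share over all pairs, 4.74% (dashed line); chromosome Y, with 8 pairs, is not drawn. The share runs from 1.14% on chromosome 17 to 11.3% on X.

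This order followed how closely summits were spaced, which the rule itself depends on. Summits of both lists together numbered from 10.4 per Mb on X to 54.5 per Mb on chromosome 22, and across 23 chromosomes without Y the Spearman rho between that density and the isolated share was −0.94. The number of isolated pairs per Mb, from 0.148 on chromosome 17 to 0.569 on 13, had a rho of −0.77 with the same density. These are descriptions across chromosomes that share libraries. Within chromosomes, the median score of isolated pairs was below that of other pairs of the same chromosome on 22 of 23 chromosomes in replicate 8, on 21 in replicate 9 and on 21 in both. The exceptions were chromosome 14, with differences of 0.81 and 0.25 over 25 isolated pairs, and chromosome 15, with 0.32 in replicate 9.

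Paired summits lay about as close together at isolated positions as elsewhere. The distance between the 2 summits had a median of 51 bp (quartiles 23 and 97) in isolated pairs and 52 bp (23 and 98) in other pairs, within the 200 bp that the pairing allows. The replicate 9 summit lay to the right in 498 isolated pairs, to the left in 518 and on the same base in 5, with a median signed offset of −2 bp. Those 5 sites were chr2:56676022, chr4:61549200, chr4:168430870, chr13:35034328 and chr19:21688826. At most 50 bp separated the summits in 506 isolated pairs (49.6%, interval 46.5 to 52.6%) and in 48.8% of the other pairs, and at most 10 bp in 12.0% and 11.4%. Over 150 bp separated them in 71 isolated pairs (6.95%, interval 5.55 to 8.68%) and in 8.59% (8.22 to 8.98%) of the other pairs.

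Summits lay closer in pairs of higher score, and in the strongest class of isolated pairs more so than in that of other pairs. In class 1, the lowest, 38.1% of isolated and 38.7% of other pairs lay within 50 bp. In classes 2 and 3 the shares were 47.2% against 43.6% and 48.6% against 48.9%. In class 4 they were 62.1% (interval 54.0 to 69.6%) against 52.6% (51.1 to 54.1%), with intervals that just overlapped, and in class 5 they were 71.3% (62.1 to 79.0%) against 59.5% (58.0 to 61.0%). The median distance in class 5 was 31.5 bp over 108 isolated pairs and 39 bp in the others.

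**Figure D4:**
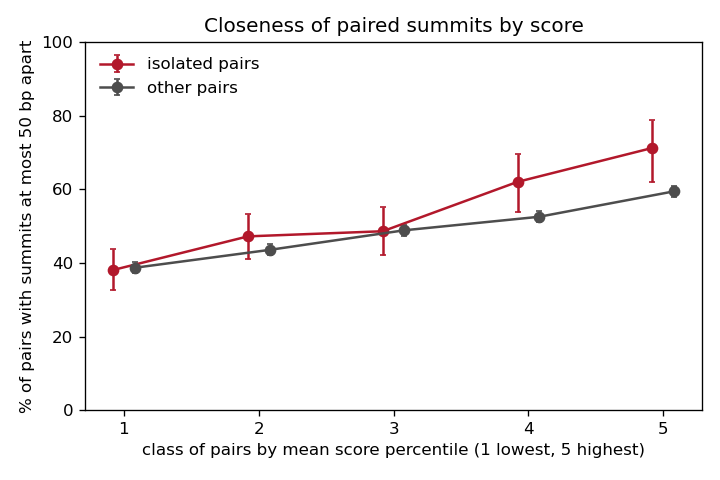
Percent of summit pairs whose summits lay at most 50 bp apart, in 5 equal classes of the mean score percentile from lowest (1) to highest (5), for isolated (red) and other (grey) pairs, with 95% Wilson intervals. The curves start together, at 38.1% and 38.7%, and end at 71.3% and 59.5%.

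The libraries ranked isolated pairs less alike than other pairs. Spearman's rho between the scores of both libraries was 0.614 across the isolated pairs and 0.732 across the other pairs, and it fell with distance from 0.763 at 1 to 5 kb to 0.663 at 50 to 100 kb, 0.624 at 100 to 200 kb and 0.577 at 200 to 500 kb, then was 0.651 over 500 kb. With summits of score 10 and above alone the values were 0.611 and 0.628, closer to each other than over all scores. The replicate 9 score was the higher of the pair in 429 isolated pairs (42.0%, interval 39.0 to 45.1%) and in 46.7% of the other pairs. The widest gap in rank was at chr13:65297993, which scored 21.2 in replicate 8, above 84.0% of that list, and 1.92 in replicate 9, above 0.548%. The lowest scores were 1.37 in replicate 8, at chr1:157768225 with 4.50 in replicate 9, and 1.42 in replicate 9, at chr9:88530949 and chr9:97273654 with 13.5 and 10.7 in replicate 8. At both chromosome 9 sites the replicate 8 score was near or above the median of the isolated pairs, whereas at chr1:157768225 both scores were low.

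Whether isolated summits recur was asked over single lists, before any pairing. A replicate 8 summit over 100 kb from the next summit of its own list had a replicate 9 counterpart at most 200 bp away in 52.7% (interval 50.6 to 54.8%) of 2189 cases, against 47.6% (47.2 to 48.1%) of the other summits. Such a replicate 9 summit had a replicate 8 counterpart in 79.3% (77.7 to 80.8%) of 2690 cases, against 76.4% (75.8 to 76.9%). The isolated summits recurred more often in each of 5 equal score classes of their list, by 2.55 to 11.3 percentage points in replicate 8 and by 4.25 to 8.10 in replicate 9. Over all classes together, the direction depended on the window, which was varied after the data were seen. At 50 bp the differences were 2.78 and 3.13 points. At 500 bp they were 2.02 in replicate 8 and −1.48 in replicate 9, and at 1000 bp they were −3.21 and −4.77. Within score classes, isolated summits recurred more often at 500 bp in 5 of the 5 classes in replicate 8 and in 4 in replicate 9. At 1000 bp they did so in 1 and 2 classes. Between 1000 and 2000 bp the isolated share of replicate 8 stayed at 57.9% while that of the other summits went from 61.1 to 66.9%.

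**Figure D5:**
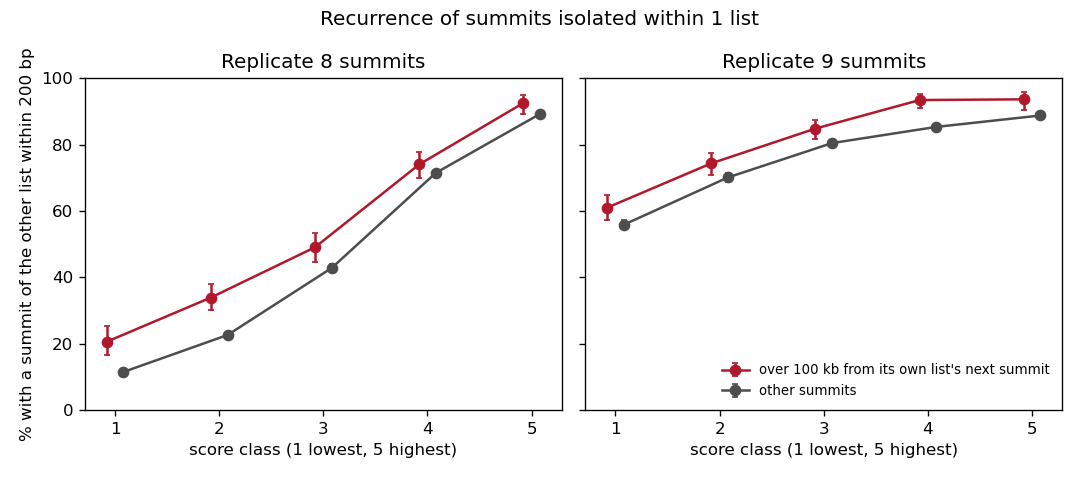
Percent of summits with a counterpart in the other list at most 200 bp away, in 5 equal score classes of the list from lowest (1) to highest (5), in replicate 8 (left) and replicate 9 (right), for summits over 100 kb from the next of their own list (red) and other summits (grey), with 95% Wilson intervals. The red points are higher in each class at this window, whereas over all classes together the direction is the opposite from 500 bp in replicate 9 and from 1000 bp in replicate 8.

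Over both lists together, summits joined within 200 bp formed 2146 isolated loci, of which 1022 held a summit of both lists (47.6%, interval 45.5 to 49.7%), 867 of replicate 8 alone and 257 of replicate 9 alone. One of these loci held more than a single pair of summits and is not among the 1021 pairs. Among the 49355 other loci the share in both lists was 41.5%, and among those with a neighbour within 1 kb it was 22.4%. Loci with the nearest neighbour at 1 to 5, 5 to 20, 20 to 50 and 50 to 100 kb had shares of 51.6, 52.8, 49.7 and 48.1%, and isolated loci had 48.8% at 100 to 200 kb, 45.3% at 200 to 500 kb and 47.4% beyond. Beyond 1 kb, then, the share in both lists ran from 45.3 to 52.8%.

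Isolated loci in 1 list alone had lower scores, with median scores of 5.25 in replicate 8 and 4.87 in replicate 9, against 11.5 and 9.31 for those in both. The strongest of them in replicate 8 were chr7:126341328, with a score of 21.5 and 240 kb to the next locus, and chr9:35657728, with 19.5 and 101 kb. In replicate 9 they were chr3:37465169, with 15.8 and 179 kb, and chr18:34545604, with 12.5 and 179 kb. Absence of a summit says only that no peak passed the authors' threshold there.

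Isolated pairs were found on every chromosome. Of 593 blocks of 5 Mb that held any pair, 453 held an isolated one, and no block held more than 7. A second isolated pair lay within 1 Mb of 563 of them (55.1%). No values to set beside these counts of blocks and of pairs were computed. They do not show whether isolated pairs gather or are spread evenly. Along the chromosomes, loci of either list taken in order, the isolated pairs formed 828 unbroken rows, of which 675 held 1 pair. The longest rows held 5, on chromosome 13 from 64636864 to 66623255 (1.99 Mb), on chromosome 5 from 2135109 to 4585468 (2.45 Mb) and on chromosome 9 from 9523855 to 12329399 (2.81 Mb). The locus nearest to an isolated pair was itself in both lists in 483 cases (47.3%, interval 44.3 to 50.4%), in replicate 8 alone in 445 and in replicate 9 alone in 93. Among all loci 41.8% were in both lists, but these include the loci with a neighbour within 1 kb, at 22.4%. Loci with the nearest neighbour at 1 to 100 kb had 48.1 to 52.8%. The loci nearest to isolated pairs were not divided by the distance to their own nearest neighbour. Their 47.3% therefore has no like share to be set against.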

How the data were processed

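ChIP libraries of replicates 8 and 9 and 1 input library were grouped by their labels. The series' design text names PRCC-TFE3 where its title and labels name PSF-TFE3, and the labels were followed. The authors ran MACS2 on each ChIP library against the input, without pooling. The deposited score is −log10 of the q-value at 1 summit per peak, with a stated q cutoff of 0.05 (score 1.30), although a p-value cutoff is also given. Sources name both hg19 and hg38. In replicates 8 and 9, 364 and 262 summits lay beyond hg38 chromosome ends, and hg19 was taken from the labels. Genes and motifs at these sites, planned for a matching genome, were not analysed here.

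The members, lists and comparisons were chosen with earlier results of these data known. Named sites are the 5 isolated pairs with the best worst rank, the 5 most remote, the highest and lowest scores per library, the widest rank gap, and the 3 nearest the isolation threshold on each side. Same-base sites and strong summits of 1 list were named after their values were seen. Pairing was tested on simulated data. Shares have 95% Wilson intervals. Alternatives changed the distances, minimum score, list length and replicates. Tables were processed with pandas 2.3.3 and numpy 2.4.6, correlations computed with scipy 1.17.1 and figures drawn with matplotlib 3.10.9, under Python 3.11.15.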

Additional observations from a re-analysis of the deposited data

How the results depend on the processing

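With an isolation distance of 50 or 200 kb there were 2302 or 352 isolated pairs, the mean score difference was −2.78 or −4.09, and the isolated share was 4.47 or 0.570% on chromosome 17 and 21.9 or 5.36% on X. Pairing within 50 or 500 bp gave differences of −3.86 or −2.90 and 31.1 or 50.2% of isolated loci in both lists. Pairing within 50 bp left 506 isolated pairs with a rho of 0.706, and within 500 bp 45.8% lay within 50 bp. With minimum scores of 5 and 10 the score difference was −2.76 and −1.43, the share within 50 bp 55.5 and 59.5%, the share on chromosome 17 2.27 and 5.40% and that on X 15.6 and 27.4%. A minimum of 5 gave a rho of 0.654, and a minimum of 10 gave 51.0% of isolated loci in both lists and differences of −0.185 in replicate 8 and −2.67 in replicate 9. With equal numbers of summits the score difference was −2.83, the share within 50 bp 54.3%, the loci in both lists 52.0% and the chromosome shares 2.54 and 15.4%. The median difference over chromosomes was −2.97. With isolation judged without one of the replicates, counting summits in place of pairs, there were 2189 to 2690 isolated summits and differences of −2.23 to −0.49. The score difference was negative in all these settings. Over all score classes together, the recurrence difference reversed with the window, chosen after seeing the data. In replicate 8 it was 2.78, 2.02, −3.21 and −9.07 points at 50, 500, 1000 and 2000 bp. In replicate 9 it was −1.48, −4.77 and −7.39 points at 500, 1000 and 2000 bp. The cause of these changes was not tested. No paired analysis was possible because there was 1 group. The lists hold no depth, so the part of read coverage in a missing summit was not tested.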
